A study of Caenorhabditis elegans with 4 samples.

Results

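Wide HTZ-1 domains are broad stretches of chromatin at which the histone variant HTZ-1 was called in worm embryos. They were chosen from the list of peaks deposited for the series as a whole, called the combined list here, as peaks of at least 2000 bp that shared at least 1 bp with a peak in each ChIP replicate. Of the 7546 combined-list peaks, 378 met this rule (5.01%). They are set against the 3966 combined-list peaks that also overlapped both replicates but were narrower, called narrower shared peaks. Width and presence in both replicates chose the domains, so these are no findings about them.

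The assay was ChIP-seq, in which DNA fragments pulled down with an antibody to a chromatin protein are sequenced. There are 2 samples of HTZ-1 ChIP and 2 of input DNA, numbered replicate 1 and 2 in each group, and all came from wild-type N2, the standard laboratory strain of Caenorhabditis elegans. The embryos were of mixed stages and both sexes and were grown at 20 °C. The antibody was an affinity-purified rabbit polyclonal (NBP170893) raised against the N-terminus of HTZ-1, and the extracts were made from whole embryos, so a domain is an average over many cell types.

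HTZ-1 is the worm form of H2A.Z, a variant that takes the place of histone H2A in a subset of nucleosomes. It is placed by ATP-dependent remodelling complexes, and in many organisms it marks the nucleosomes that flank the start sites of genes. In budding yeast it is found at the promoters of active and of inactive genes alike. Which genes lie at the domains, and their sequence, were not analysed here, since the only gene table used is on a later assembly (WBcel235) than the files. All positions below are 1-based on WormBase WS220.

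The data are 3 peak lists, a list for each ChIP replicate (3848 and 3650 peaks) and the combined list. The input samples were not analysed here. A score given by the authors' peak caller stands beside each peak. Its scale differs between the combined list and the replicate lists, so scores, ranks and medians of scores are compared only within 1 list. The read depth is unknown, and separate cultures are not stated for the replicates. No sample is named in the combined list, and it is treated here as built from both replicates. Intervals below are exact 95% binomial intervals, which cover counting error only and treat peaks as independent, which neighbouring peaks are not. With 1 ChIP group and 2 replicates no test between conditions was possible, and differences between classes of peaks are given as descriptions.

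The 378 wide domains covered 949.9 kb, which is 14.3% of the length covered by the combined list, while they were 5.01% of its peaks. Their median width was 2324.5 bp (quartiles 2116 and 2729.75 bp), against 1171 bp (784 and 1479 bp) in the narrower shared peaks. Most stood not far above the minimum. In all, 238 (62.96%) were 2000 to 2499 bp wide, 82 were 2500 to 2999 bp and 48 were 3000 to 3999 bp, and 10 reached 4000 bp or more.

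The widest domain lay on chromosome IV at 15470519 to 15476540 and was 6022 bp wide, with rank 76 of 7546 by score. In replicate 1 it was called as 1 peak of 6978 bp and in replicate 2 as 1 peak of 6782 bp, so both replicates gave it as an unbroken stretch. No other combined-list peak fell inside either of them. The next was on chromosome I at 2060679 to 2065974, with 5296 bp (rank 537), and there the replicate peaks of 8004 and 6911 bp took in further combined-list peaks, the nearest of them 46 bp away.

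The other 8 of the 10 widest were between 4161 and 4385 bp wide and lay on 5 chromosomes. Chromosome IV had 2 of them, at 11520357 to 11524741 and at 16864445 to 16868709. Chromosome I had 2, at 5508504 to 5512794 and at 1338357 to 1342619, and chromosome III had 2, at 7708241 to 7712524 and at 12426451 to 12430611. These domains were not alike in strength, since the one at 16864445 ranked 14 by score and the one at 12426451 ranked 1283. The widest on chromosome II was 4384 bp wide (10168995 to 10173378, rank 295), and the widest on V was 4220 bp wide (3756373 to 3760592, rank 605). On X no domain exceeded 3061 bp (13595585 to 13598645, rank 2689).

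There was no gap in width at the minimum of 2000 bp. Just inside it were domains of 2001 bp on chromosome II (12603192 to 12605192) and of 2003 bp on III (9053589 to 9055591) and V (9980010 to 9982012). Just outside it were peaks of 1998 bp on III (5878031 to 5880028) and I (13658958 to 13660955) and of 1996 bp on IV (12267330 to 12269325). The 82 domains that were less than 100 bp above the minimum had median replicate widths of 3259 and 3041 bp, and the 102 shared peaks from 1900 bp up to the minimum had 3138.5 and 2955 bp. The set is thus the upper end of a continuous distribution of widths.

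The combined list held 393 peaks of 2000 bp or more, and 15 of them did not overlap both replicates and are not counted as wide domains. Width and overlap are what the rule used, so nothing is read from this number. The 15 left out scored low, with a median of 18.7 against 97.8 in the wide domains, and 11 of them met a replicate 2 peak only. A further 1 met replicate 1 only, and 3 met neither. Those 3 included the widest peak of the whole list, 11085 bp on chromosome I at 15060258 to 15071342, which ended 1086 bp before the furthest peak end on that chromosome. The other two were neighbours on chromosome V, at 17119945 to 17124000 and 17129644 to 17132092. They were singled out after their values were seen, and what the annotation holds there was not analysed here.

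Wide domains were mostly strong sites, but width did not order them by score. The score comes from the same list as the width, so this is a description of the set. Their ranks ran from 2 to 4847 with a median of 1063, against a median of 2328 in narrower shared peaks. In all, 331 of the 378 (87.6%, interval 83.8% to 90.7%) scored above the median of all shared peaks, against 1839 of the 3966 narrower ones (46.4%, 44.8% to 47.9%). Compared only with narrower shared peaks of at least 1000 bp, of which 1701 of 2477 (68.7%) lay above that median, the difference was smaller. With a width minimum of 1500 bp, 86.5% of 1321 peaks lay above it (84.6% to 88.3%), so high scores are not particular to the wide domains. The 102 shared peaks from 1900 bp up to the minimum had a median score of 108.4. The 82 domains less than 100 bp above it had 89.2. Wide domains made up 139 of the 754 peaks in the top 10% of the combined list (18.4%).

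Within the wide domains score did not follow width closely, with a Spearman rho of 0.0832 over 378 domains and 0.186 over the 233 that were alone in both replicate peaks. Within the narrower shared peaks rho was 0.768 over 3966 peaks, and 0.452 over the 2477 of them that were 1000 bp or more, which span a smaller range of widths. Over the 2141 narrower peaks alone in both replicate peaks it was 0.618. Width and score are made from the same reads, so these are descriptions of 1 list. From narrow to wide, median scores were 27.3 at 500 to 999 bp, 63.8 at 1000 to 1499 bp, 100.8 in narrower peaks of 1500 bp or more, 95.9 in domains of 2000 to 2499 bp, 104.6 at 2500 to 2999 bp and 93.6 at 3000 to 3999 bp, and 122.02 in the 10 domains of 4000 bp or more. The medians thus climbed up to the width minimum and lay between 93.6 and 122.02 above it.

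**Figure D1:**
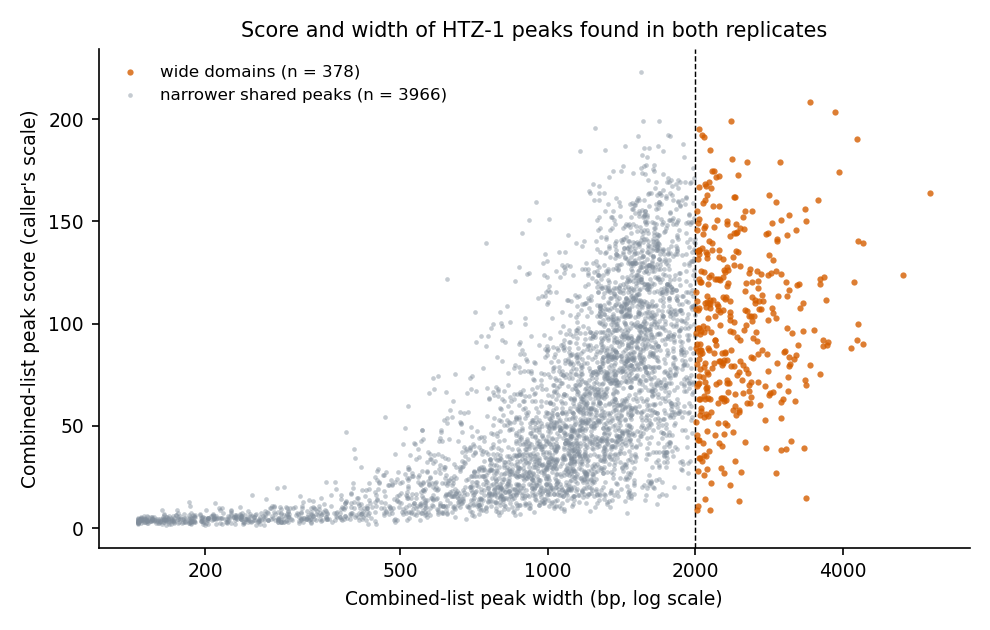
Score in the combined list against peak width (log scale) for the 378 wide domains (orange) and the 3966 narrower shared peaks (grey), each point being 1 peak and the dashed line the width minimum of 2000 bp. Scores climb with width up to about the minimum and spread over nearly the whole range of scores beyond it.

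The strongest and the weakest domain both lay on the left part of chromosome IV. The highest score, 208, belonged to a domain of 3427 bp at 1054122 to 1057548, which ranked 2 in the whole list and was called as peaks of 4383 and 4477 bp in replicates 1 and 2. The lowest score, 9.01, belonged to a domain of 2138 bp at 378020 to 380157, with rank 4847. There replicate 1 had a peak of 3815 bp that enclosed the domain, while replicate 2 had a peak of 2032 bp that began 457 bp inside its left edge and covered 78.6% of it. It was the least covered of all wide domains.

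The replicate lists resolved a wide domain as 1 unbroken peak in nearly every case. In replicate 1 all 378 lay wholly inside 1 peak (interval of the share 99.03% to 100%). In replicate 2, 362 did (95.8%, 93.2% to 97.6%), and the other 16 were covered in part. A domain at chromosome II, 12458737 to 12461304, was the one case with 2 peaks, both in replicate 2, which together covered 98.6% of it. All narrower shared peaks together lay wholly inside a peak at a like rate, 99.4% in replicate 1 and 96.9% in replicate 2, within the counting intervals of the wide domains. For those of 1000 bp or more the share was 99.96% in replicate 1 and 99.3% in replicate 2 (98.9% to 99.6%). In replicate 2 that interval lies above the one for wide domains.

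Replicate peaks were wider at wide domains than at narrower shared peaks, in both replicates. Replicate 1 had a median of 3898.5 bp (quartiles 3285 and 5050.75 bp) at wide domains and 2608.5 bp (2153.5 and 3732 bp) at narrower shared peaks. Replicate 2 had 3465 bp (3060.25 and 4217.5 bp) at wide domains and 2422 bp (2052 and 2855 bp) at narrower shared peaks. The quartiles of the classes overlapped in replicate 1 and did not in replicate 2. Averaged over the 2 replicates the median was 1166.5 bp wider at wide domains, with differences of 1290 and 1043 bp in replicates 1 and 2. The replicate peak belonged to the widest 25% of its list at 335 of the 378 domains in replicate 1 (88.6%) and at 355 in replicate 2 (93.9%), against 34.3% and 27.1% of narrower shared peaks. The combined list was treated as built from these replicates, so this is no independent support for the width.

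The same order of widths was seen at like scores. The rule sets the combined-list widths apart in every score group (medians of 2339 against 1547 bp in the highest). A wider replicate peak at wide domains thus largely follows from the rule, and these values are a description only. When the shared peaks were divided into 5 equal groups by combined score, wide domains had the wider replicate peaks in each group and each replicate. In the highest group, medians were 3946.5 bp at 164 wide domains against 2713 bp at 705 narrower peaks in replicate 1, and 3536.5 against 2623 bp in replicate 2. In the middle group they were 3758 against 2404.5 bp in replicate 1 and 3358 against 2257 bp in replicate 2 (69 and 798 peaks). The lowest group held only 6 wide domains, and there replicate 2 differed by only 63 bp (2554 against 2491 bp). The share of wide domains among shared peaks went up with score, at 0.684%, 2.44%, 7.96%, 13.6% and 18.9% in the 5 groups from the lowest to the highest.

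**Figure D2:**
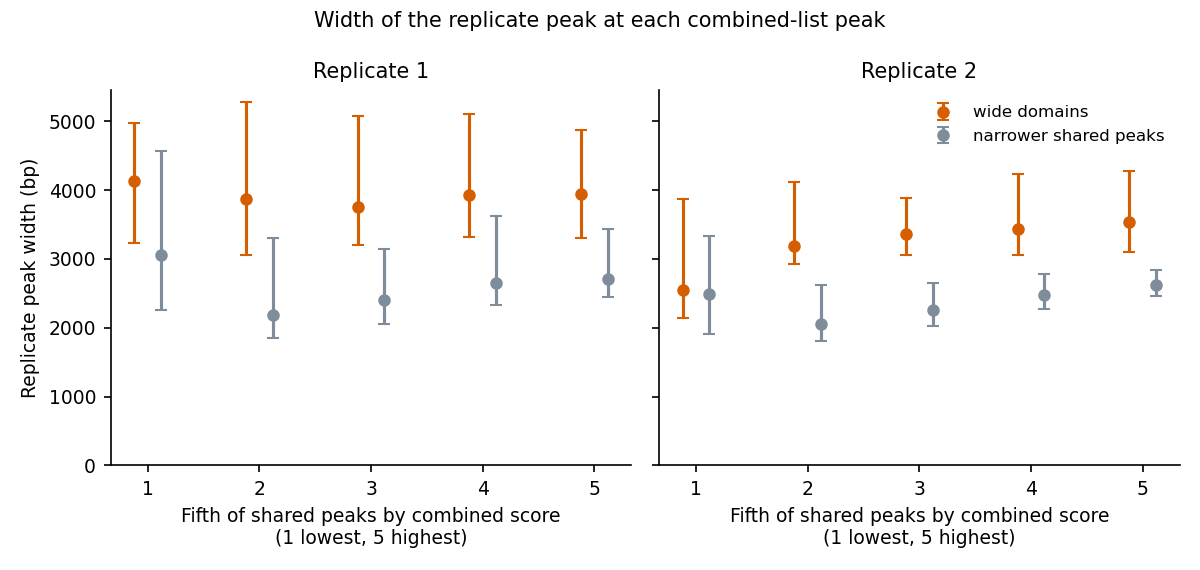
Median width of the replicate peak, in bp, at wide domains (orange) and narrower shared peaks (grey) in 5 equal groups of shared peaks by combined score, for each replicate, with bars from the lower to the upper quartile. Wide domains lie above narrower peaks in every group, by as little as 63 bp in the lowest group of replicate 2, which holds 6 domains.

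Replicate 1 gave the wider peak at 282 of the 378 domains (74.6%, interval 69.9% to 78.9%), with a median difference of 225 bp between replicate 1 and replicate 2. At narrower shared peaks it did so at 64.1% (62.6% to 65.6%), with a median difference of 117 bp. Not every replicate peak held the domain alone. At 104 domains (27.5%) the replicate peaks held further combined-list peaks in both replicates. At 39 domains they did so in replicate 1 but not in replicate 2, and the reverse was seen at 2 domains. At the 233 domains that were alone in both replicate peaks, the median difference was 155 bp, with median widths of 3436 and 3272 bp. The widths in the 2 replicates ranked alike there, with a Spearman rho of 0.699 over 233 domains and 0.805 over the 2141 narrower peaks that were alone in both.

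Where a combined-list peak was alone in its replicate peak, the replicate peak exceeded it by about the same length at every width. At wide domains the median excess was 1025 bp in replicate 1 (quartiles 913.5 and 1178.5 bp, 235 domains) and 897.5 bp in replicate 2 (747.5 and 1025.25 bp, 272 domains). Narrower shared peaks had a median excess of 996 bp in replicate 1 (2190 peaks) and 966 bp in replicate 2 (2362 peaks). On either side of a wide domain the replicate peak reached 492 and 527 bp further in replicate 1 and 431 and 482 bp further in replicate 2 (medians, left and right). Domains of 4000 bp or more had an excess of 1150 and 976 bp, from 5 domains in each replicate. The median excess thus differed by less than 100 bp between wide domains and narrower peaks in each replicate, while their median widths differed by more than 1000 bp. The combined list names MACS v2 as its caller and the replicate lists name MACS, so the widths compared here are unlike measures. The cause of the excess was not tested.

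**Figure D3:**
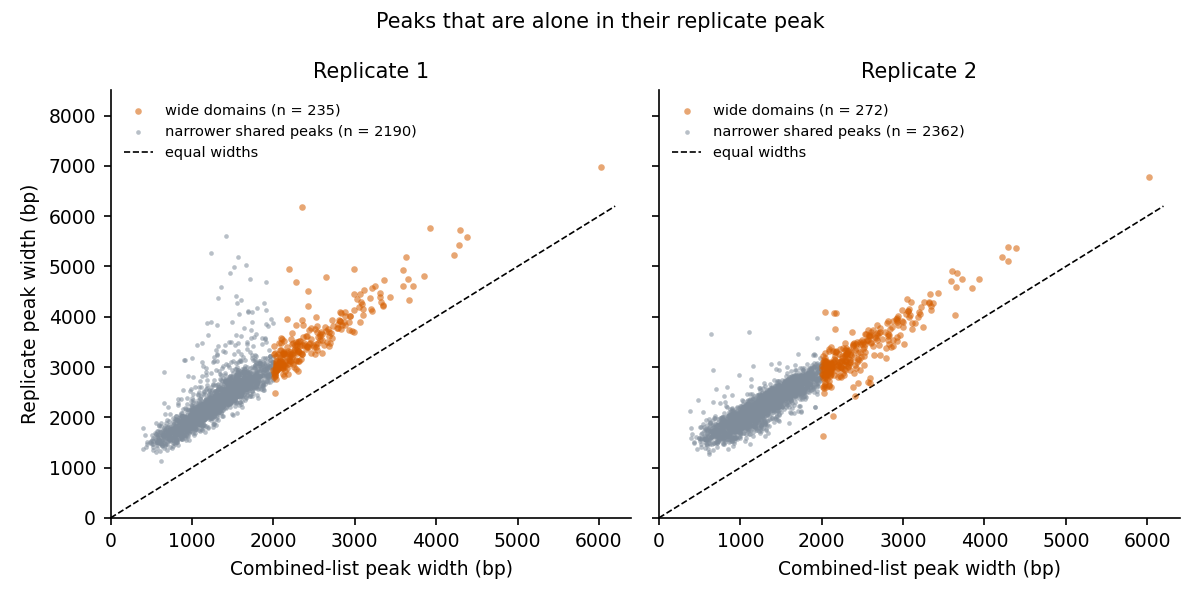
Replicate peak width against combined-list peak width, both in bp, for peaks that are alone in their replicate peak, with 1 point for each wide domain (orange, 235 and 272) or narrower shared peak (grey, 2190 and 2362), and a dashed line of equal widths. Both classes form 1 band that runs above the line at a near constant distance, the median excess of wide domains being 1025 bp in replicate 1 and 897.5 bp in replicate 2.

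The 2 replicates placed the edges of the domains close together. Their peaks differed by a median of 137.5 bp at the left edge (quartiles 57.25 and 292.75 bp) and 137 bp at the right edge (62 and 328.75 bp). Narrower shared peaks differed by 112 and 111 bp. At the 233 wide domains alone in both replicate peaks the medians were 104 and 103 bp, against 86 and 85 bp at the narrower ones. These edge differences are small beside the median domain width of 2324.5 bp, although the largest reached 9435 bp, at a right edge.

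Scores in the replicate lists were high at wide domains. Many replicate peaks are tied at a score of 3100, and 214 of the 378 domains (56.6%, interval 51.4% to 61.7%) stood at 3100 or above in replicate 1, against 14.4% (13.3% to 15.6%) of narrower shared peaks. In replicate 2 the shares were 24.3% (20.1% to 29.0%) at wide domains and 3.98% (3.40% to 4.64%) at narrower ones. The narrower peaks nearest in width, those of 1500 bp or more, stood at 3100 or above in 34.6% of cases in replicate 1 and 9.54% in replicate 2. Both replicates reached it at 87 domains. Weak replicate peaks were rare, since only 1 domain in replicate 1 and 5 in replicate 2 fell in the lowest 25% of that list by score, against 14.5% and 22.7% of all narrower shared peaks and 3.35% and 10.2% of those of 1000 bp or more. Combined score followed domain width only weakly (Spearman rho 0.0832 over 378 domains), while the share at 3100 or above increased with it. In replicate 1 this share was 45.8% for 2000 to 2499 bp, 68.3% for 2500 to 2999 bp, 81.25% for 3000 to 3999 bp and 100% of the 10 widest. In replicate 2 it was 18.5%, 24.4%, 45.8% and 60%. A replicate peak that takes in more than 1 combined-list peak carries 1 score for all of them.

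Few wide domains lay on X, the chromosome on which hermaphrodites of this species reduce transcription by dosage compensation. X held 7 wide domains and the 5 autosomes 371, which is 0.397 per Mb on X and 4.50 per Mb on autosomes. The ratio was 0.0884 (exact interval 0.0353 to 0.184), against 0.499 (0.448 to 0.555) for narrower shared peaks, and these intervals do not overlap. With a width minimum of 1500 bp, which takes in 1321 peaks, the ratio was 0.139 (0.0977 to 0.191). That interval overlaps the one for wide domains, so the low ratio is not particular to widths of 2000 bp or more. Among the shared peaks, 1.80% on X were wide (7 of 389, interval 0.726% to 3.67%) and 9.38% on autosomes (371 of 3955, 8.49% to 10.3%). Among strong sites alone the intervals did not overlap either. Of the shared peaks above the median score, 4 of 136 were wide on X (2.94%, 0.807% to 7.36%) and 327 of 2034 on autosomes (16.1%, 14.5% to 17.7%). At or below the median score wide domains were few everywhere, 3 of 253 on X (1.19%, 0.245% to 3.43%) and 44 of 1921 on autosomes (2.29%, 1.67% to 3.06%), and the intervals overlap. X is 1 chromosome, so these shares carry no spread between chromosomes of its kind.

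The 7 domains on X were all named after their number was seen. A domain of 2812 bp at 45955 to 48766 was the strongest, with rank 240 and a score of 3100 in both replicates. A second lay nearby at 184147 to 186396, with 2250 bp and rank 3049. After a stretch of 7.47 Mb without any came domains at 7661017 to 7663114 (2098 bp), 10377254 to 10379511 (2258 bp), 11946497 to 11948612 (2116 bp) and 13224715 to 13227394 (2680 bp), and last the widest, at 13595585. Their replicate peaks were 3005 to 3929 bp wide in replicate 1 and 2923 to 4112 bp in replicate 2, within the range of domains on autosomes. A further 3 wide peaks on X met a replicate 2 peak only and are not counted as domains.

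Among autosomes the share of shared peaks that were wide differed little except on V. It was 9.38% on I (94 domains), 9.26% on II (63), 10.97% on III (97) and 9.96% on IV (80), and 6.31% on V (37 of 586, interval 4.48% to 8.60%). The intervals of I to IV overlap each other, and that of V overlaps all of theirs except that of III. Counted per Mb, III had 7.04 domains and I had 6.24, against 4.57 on IV, 4.13 on II and 1.77 on V. The order of III, I, IV, II and V by domains per Mb differs from that of narrower shared peaks only in that I, with 60.2 per Mb, stands before III, with 57.1. Median domain widths by chromosome ran from 2258 bp on X to 2366 bp on I.

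**Figure D4:**
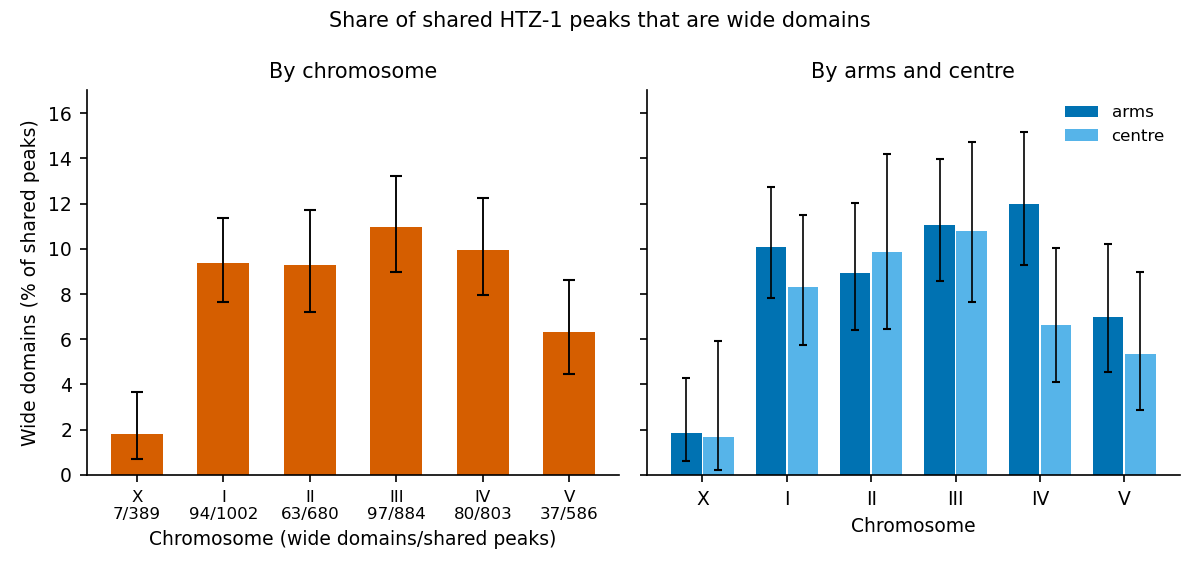
Share of shared peaks that are wide domains, in percent, on each chromosome (left, with counts below the names) and on the arms and the centre of each chromosome (right), with exact 95% binomial intervals. X stands lowest at 1.80%, V is at 6.31% and chromosomes I to IV lie between 9.26% and 10.97%.

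Counted per Mb or as a share of shared peaks of every width, wide domains showed no single order between autosome arms and centres across width minimums and scores. The centre is the middle 1/3 of each chromosome by length. Arms had 4.47 domains per Mb (246) and centres 4.55 per Mb (125). Of the 371 autosomal domains, 66.3% lay on arms (61.2% to 71.1%). Among narrower shared peaks on autosomes, 61.4% of all (59.8% to 63.0%) and 56.8% of those of 1000 bp or more (54.7% to 58.9%) did. Only the last interval lies apart from that of the wide domains. As a share of shared peaks, 10.1% were wide on arms (interval 8.89% to 11.3%) and 8.28% in centres (6.94% to 9.79%), a difference of 1.77 percentage points (95% Newcombe interval -0.104 to 3.57). With a minimum of 1500 bp the direction turned, with 31.3% wide on arms and 34.3% in centres, and 13.9 and 18.8 per Mb (difference -2.94 percentage points, interval -5.97 to 0.0575). Both intervals include 0. With a minimum of 3000 bp it was 1.72% on arms and 0.994% in centres, and 0.764 and 0.545 per Mb. On chromosome IV the difference was largest, with 60 of 501 (11.98%, 9.26% to 15.1%) on arms and 20 of 302 (6.62%, 4.09% to 10.04%) in the centre. Chromosome II ran the other way, at 8.92% on arms and 9.84% in the centre. Among shared peaks above the median score the arms had the higher share on all 5 autosomes, 18.7% (16.5% to 21.1%) on arms against 12.6% (10.4% to 14.9%) in centres when pooled. The pooled intervals do not overlap. At or below the median score it was 2.19% on arms (28 of 1280) and 2.50% in centres (16 of 641). By chromosome, above the median score, the shares were 18.2% against 13.1% on I, 16.7% against 14.9% on II, 20.7% against 14.9% on III, 24.3% against 11.2% on IV and 12.1% against 7.59% on V. Only on IV do the intervals of arms and centre lie apart (18.6% to 30.7% against 6.76% to 17.1%). On I, II, III and V they overlap. Within 1 Mb of a chromosome end lay 52 domains (13.8%, interval 10.4% to 17.6%), against 12.6% of narrower shared peaks.

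Along the chromosomes the domains were scattered. Of 103 bins of 1 Mb, 83 held at least 1 domain, with a median of 3 and at most 12, which was reached once, in the bin numbered 7 on chromosome I, where 73 shared peaks lay. Of the 20 empty bins 13 were on X and 5 on V. The median distance between neighbouring domains was 99.6 kb on III, 107 kb on I, 143 kb on II, 162 kb on IV, 320 kb on V and 1421.5 kb on X. The longest stretch without a domain on an autosome was 1.99 Mb, on V between 10962313 and 12950916.

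Close to a domain there was often a further, mostly weaker peak. The nearest other combined-list peak lay within 1 kb of 136 of the 378 domains (35.98%, interval 31.1% to 41.04%). This share was lower than for all narrower shared peaks (44.3%, 42.7% to 45.8%), and its interval overlaps that for narrower shared peaks of 1000 bp or more (31.1%, 29.3% to 33.0%). Within 500 bp the share was 25.4% at wide domains (21.1% to 30.1%), 33.3% at all narrower shared peaks and 19.2% at those of 1000 bp or more (17.7% to 20.8%), and the intervals of the first and the last do not overlap. Of shared peaks under 500 bp, 98.4% had a neighbour within 1 kb. The median distance was 2016 bp at wide domains, 1389 bp at all narrower shared peaks and 2186 bp at those of 1000 bp or more. Counted within 10 kb on each side of the midpoint, wide domains and narrower shared peaks both had a median of 2 other peaks, and 50 domains (13.2%) and 554 narrower peaks (13.97%) had none.

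**Figure D5:**
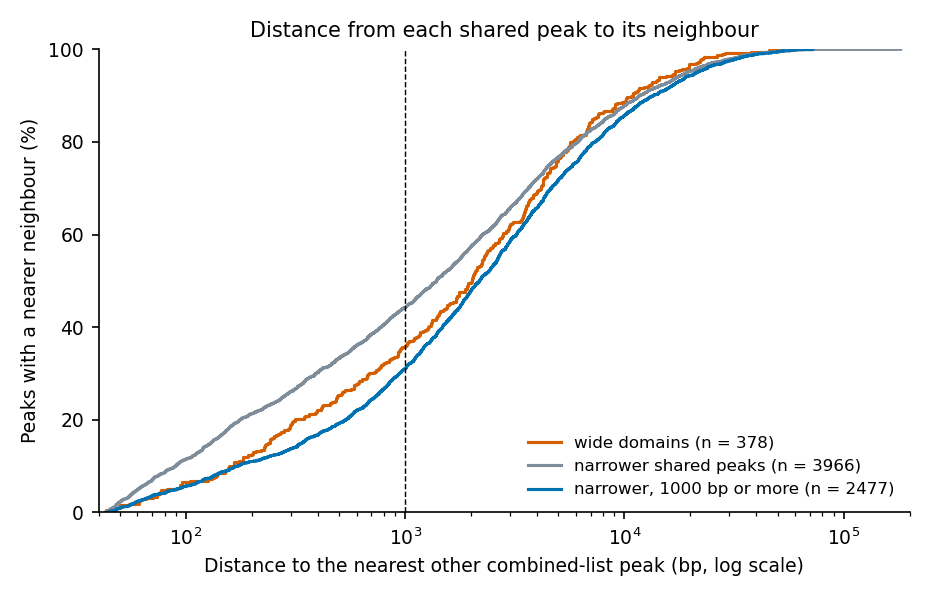
Cumulative share of peaks, in percent, by the distance in bp (log scale) to the nearest other combined-list peak, for wide domains (orange, 378), all narrower shared peaks (grey, 3966) and those of 1000 bp or more (blue, 2477), with a dashed line at 1 kb. At 1 kb the curve of wide domains stands at 35.98%, between those of the narrower peaks at 44.3% and 31.1%.

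Of the 136 close neighbours, 104 were narrower shared peaks, 24 were peaks not found in both replicates and 8 were other wide domains. They were small, with a median width of 568.5 bp and a median score of 9.68, and 18 of them (13.2%) scored higher than the domain. Replicate 1 placed 128 of them in the same peak as the domain (94.1%) and replicate 2 placed 100 (73.5%). For the 1756 close neighbours of narrower shared peaks these shares were 94.9% and 89.3%. In replicate 2 the share was lower for wide domains than for narrower peaks, a difference that was not tested. Those 1756 neighbours had a median width of 722 bp and a median score of 17.99, and 45.8% scored higher than the peak beside them. They belong to narrower shared peaks of every width, and those of 1000 bp or more were not counted apart.

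In 8 places 2 wide domains lay in the same peak of at least 1 replicate, and in 5 of these in both. The longest was on chromosome I, where domains at 11904525 to 11907506 (2982 bp) and 11908077 to 11911777 (3701 bp) were 570 bp apart and were called as 1 peak of 12065 bp in replicate 1 and 10545 bp in replicate 2. The other 4 places shared by both replicates were on chromosome III. The closest pair there, at 12452695 to 12455024 and 12455190 to 12458686, was 165 bp apart and was called as peaks of 7321 and 8221 bp.

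Seen from the replicates, the widest peaks held several combined-list peaks without a wide domain more often than they held a wide domain. The domains lay in 371 distinct peaks of replicate 1 and 372 of replicate 2, which is 9.64% and 10.2% of those lists. Among the 378 widest peaks of replicate 1, all at least 4335 bp, 148 held a wide domain (39.2%) and 336 held at least 2 combined-list peaks (88.9%). In 218 there were several combined-list peaks but no wide domain. The 378 widest of replicate 2, all at least 3637 bp, gave 154 with a wide domain (40.7%), 283 with at least 2 combined-list peaks (74.9%) and 202 with several but no wide domain. Of the replicate peaks that held a wide domain, 39.9% in replicate 1 and 41.4% in replicate 2 were among the 378 widest, so width in a replicate list and width in the combined list picked out partly different sites. For domains alone in their replicate peak the 2 widths ranked alike, with a Spearman rho of 0.857 in replicate 1 (235 domains) and 0.804 in replicate 2 (272 domains). The lists name different callers, MACS v2 for the combined list and MACS for the replicates.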

How the data were processed

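Deposited peak lists of 2 HTZ-1 ChIP replicates and 1 combined list were used, grouped by sample titles. The build is WormBase WS220 per the file headers, and the submitters' processing notes name BWA, without a version, and ce10. Formaldehyde (2%) was the fixative and 10% of each extract served as input, per the labels' protocols. The peak score of each list was deposited by the authors (from MACS v2 in the combined list and MACS in the replicates, per the files' source column), and its scale, thresholds and use of the input are not given in the sources used here. Peak start and end positions were also deposited by the authors. Combined-list peaks of 2000 bp or more that overlapped each replicate by at least 1 bp were taken as wide domains. The widest overlapping replicate peak stood for each domain. Chromosome spans end at the furthest peak in any list. Overlaps, distances, medians and exact binomial intervals were computed with Python 3.11.15, pandas 2.3.3 and scipy 1.17.1, and tested on simulated lists. The exact interval of the ratio between X and autosomes takes the total count as given, and the interval of a difference of shares is Newcombe's (statsmodels 0.14.6). The 10 widest domains, the widest on each chromosome, 3 peaks on each side of the minimum, the highest and lowest scores and domains with most replicate peaks were named by rule. Domains and rules were chosen with earlier results of these data known. Depth is unknown.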

Additional observations from a re-analysis of the deposited data

How the results depend on the processing

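Of the 66 alternative values, 42 stayed within the counting interval or replicate spread of the reported value (for counts, within 1.5 times), and 1 changed direction. It was the share of shared peaks that are wide on autosome arms minus that in centres, with alternatives chosen after seeing the data. It was 1.77 percentage points as reported and -2.94 with a width minimum of 1500 bp, and the cause was not tested. It was 5.21 (interval 2.07 to 8.23) with the upper 50% of each replicate list by score. With the central 50% as the centre it was 1.85 (0.0177 to 3.72). It was 1.04 to 1.42 without a replicate, and 0.723 to 1.87 in the other alternatives, with intervals that include 0. With a width minimum of 1500 bp there were 1321 domains (30.4% of shared peaks). Their replicate peaks were 689.5 bp wider than at narrower peaks, 98.3% lay inside 1 peak in each replicate, 59.7% of the autosomal ones lay on arms and the edges differed by a median of 118 bp. With a minimum of 3000 bp there were 58 domains (1.34%), with a difference of 2072.75 bp, 98.3% inside 1 peak, 93.1% in the upper 50% of shared peaks by score and 73.7% on arms. With the upper 50% of each replicate list by score, 15.4% of shared peaks were wide, the difference in width was 967.5 bp, and 59.9% of domains lay in the upper 50% by score. Against shared peaks of 1000 bp or more, 66.1% did. With the central 50% as the centre, 49.06% of domains lay on arms, which are then a smaller part of the chromosome. A neighbour lay within 500 bp at 25.4% and within 2 kb at 49.5% of domains. Without replicate 1 or replicate 2, there were 379 to 389 domains, 7.03% to 8.21% of shared peaks were wide, the width difference was 1044 to 1324 bp, 95.9% to 100% lay inside 1 peak, 87.7% to 93.7% lay in the upper 50% by score, the ratio of X to autosomes was 0.0881 to 0.124, 66.2% to 66.4% lay on arms and 35.9% to 36.2% had a neighbour within 1 kb. Merging peaks less than 200 bp apart gave 489 domains. Keeping only peaks alone in their replicate peak, an alternative chosen after seeing the data, gave a width difference of 1070.5 bp. The edge difference needs both replicates and was not computed without one. No paired analysis was possible because no result comes from a test, and files of the ChIP group alone were used here.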
